A study of Mus musculus with 6 samples.

Results

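Cytosolic ribosomal protein genes were taken from an array comparison of DN2 thymocytes that lack E2A with wild-type DN2 thymocytes. A gene belonged to the group if its symbol in the array annotation was a ribosomal protein symbol of the large subunit (Rpl) or small subunit (Rps), or was Rpsa, Rplp0, Rplp1 or Rplp2. It also had to be named alone by at least 1 probe set, and its brightest such probe set, by mean intensity, stood for it. This gave 49 genes of 18193 measured in all. They comprised 20 genes of the large (60S) subunit, 21 of the small (40S) subunit, the stalk genes Rplp0 and Rplp2, and 6 genes with paralogue symbols (Rpl22l1, Rpl39l, Rpl3l, Rpl7l1, Rps27l and Rps4l). A further 29 ribosomal protein symbols, among them Rpl3, Rpl5, Rplp1 and Rps12, were named only by probe sets that also listed other genes and were not assigned a value.

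The 2 groups were E2A-deficient and wild-type cells, 3 arrays each, all on the FVB background and all sorted as DN2 cells from fetal thymus. DN2 cells are immature thymocytes without CD4 and CD8 at the stage where progenitors commit to the T-cell fate, and E2A is the pair of transcription factors encoded by Tcf3. The labels do not give the E2A allele, the age of the fetuses, whether animals were pooled, or whether replicates came from separate animals. The p-values therefore measure the spread between arrays alone, and how much of it is technical is not known. The wild-type arrays differed strongly in the sex-linked RNA Xist (3055, 4456 and 58.7), so they were not all repeats of 1 RNA sample. Whether the E2A-deficient arrays came from separate samples is not known.

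The cytosolic ribosome joins a small subunit, which reads the messenger RNA, to a large subunit, which forms the peptide bonds. Its proteins are made in step with each other and with ribosomal RNA, and many of their messenger RNAs begin with a run of pyrimidines, the 5' terminal oligopyrimidine tract, through which mTOR and the RNA-binding protein Larp1 control their translation. T-cell progenitors are sensitive to ribosomal proteins, since mice without Rpl22 lose most alpha-beta T cells at an early thymic stage.

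The annotated starts of some of these genes show that tract, and they are printed because it is a sequence feature that the choice of genes did not use. RefSeq promoter windows of assembly GRCm38.p6, 250 bases before to 50 bases after the start, were found for 43 of the 49 genes, some with more than 1 start. A start with C at the first base and at least 4 further pyrimidines (C or T, transcribed strand) occurred in 8 of the 43 genes, 18.6%, against 2.93% of the 14452 measured genes with a promoter. The 8 starts follow, each with 30 bases before and 20 bases from the start on. Capitals mark the uninterrupted pyrimidine run counted from the start, and pyrimidines directly before the start stay in lower case.
Rpl14 (chr9:120571487-120571536, plus strand): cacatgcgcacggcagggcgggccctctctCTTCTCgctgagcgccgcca
Rpl35 (chr2:39005112-39005161, minus strand): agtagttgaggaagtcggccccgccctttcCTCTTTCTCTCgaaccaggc
Rpl38 (chr11:114668550-114668599, plus strand): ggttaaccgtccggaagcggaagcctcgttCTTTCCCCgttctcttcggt
Rplp2 (chr7:141447621-141447670, plus strand): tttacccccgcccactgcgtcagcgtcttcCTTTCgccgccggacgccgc
Rps10 (chr17:27635225-27635274, minus strand): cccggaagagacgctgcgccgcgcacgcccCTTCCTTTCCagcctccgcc
Rps18 (chr17:33955646-33955695, minus strand): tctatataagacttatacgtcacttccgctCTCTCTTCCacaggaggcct
Rps27 (chr3:90213629-90213678, minus strand): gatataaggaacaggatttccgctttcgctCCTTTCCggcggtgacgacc
Rps6 (chr4:86857348-86857397, minus strand): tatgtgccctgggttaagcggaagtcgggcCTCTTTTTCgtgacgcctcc
Counted from the start on, the runs were between 5 and 11 bases long. Annotated starts can lie some bases from the start in use, so a gene without the run at this base may still carry one. The ETS-family core CCGGAAG, searched on both strands, was present in the windows of 21 of the 43 genes (48.8%), against 15.0% of all genes. The E box CANNTG, the site class that E proteins bind, was present on either strand in 22 of the 43 (51.2%), against 70.9% of all genes. Its more specific forms are contained in that count. The form CAGCTG occurred in 3 genes (6.98% against 18.8% of all genes). The form CACCTG occurred in 7 genes (16.3% against 22.9%). CACGTG, the form bound by Myc, occurred in 4 (9.30% against 10.2%), and TATAAA in 6 (14.0% against 11.5%). These are matches of letters and not measured binding sites.

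Values were one linear intensity per probe set and array, and the probe set median lay between 77.4 and 79.0 on all arrays. Tcf3 itself fell, to 236, 229 and 281 in the E2A-deficient libraries against 477, 421 and 414 in the wild-type libraries (limma adjusted p = 0.00532). Of 9 measured DN2 genes, Gata3 rose (1.45 on the log2 scale, limma adjusted p = 0.00215) and Thy1 fell (-1.32, limma adjusted p = 0.00158). Thy1 read 156, 151 and 133 in E2A-deficient cells, against 365, 427 and 319 in wild-type cells. Kit, Cd44 and Il2ra lay at or above 272 on every array, while Ptcra, Cd4, Cd8a and Cd8b1 lay below 100 on every array. Among marker lists of other cells, 0 of 4 B-lineage, 3 erythroid, 5 thymic epithelial and 5 mesenchymal and endothelial genes passed, and 1 of 5 myeloid genes (Lyz2) and 1 of 4 later thymocyte genes (Cd5) fell. Mpo, of the myeloid list, did not pass but was far above the array medians in both groups. It read 1202, 967 and 938 in E2A-deficient cells, against 1030, 829 and 861 in wild-type cells. The summed level separated the groups for the thymic epithelial list (440 to 485 in E2A-deficient and 393 to 431 in wild-type cells), the erythroid list (249 to 308 in E2A-deficient and 232 to 244 in wild-type cells) and the later thymocyte list (309 to 314 in E2A-deficient and 339 to 378 in wild-type cells), and overlapped for the others. For the beta-actin control the ratio of 5' to 3' signal, which reflects RNA and amplification quality, was 0.165, 0.160 and 0.149 on E2A-deficient arrays, against 0.104, 0.162 and 0.0981 on wild-type arrays. Control probe sets aside, the highest intensity was 18824, 18654 and 18331 on E2A-deficient arrays, against 18794, 13632 and 14647 on wild-type arrays. Apart from a fit with the beta-actin ratio, the part of these marker and quality values in the results below was not tested.

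None of the 49 ribosomal protein genes passed the test across all genes (limma on log2 of intensity plus 1, Benjamini-Hochberg adjusted p under 0.05). The count was 0 of 49, where 3.46% of all genes passed, which comprised 2.40% of all genes as higher and 1.06% as lower in E2A-deficient cells. At an unadjusted p under 0.05, 14 genes were higher and 0 lower, against 11.1% and 4.56% of all genes. That count moved when single arrays were left out and with the scaling. It was 4, 7 and 6 higher without E2A-deficient replicates 1, 2 and 3, and 27, 8 and 4 higher without wild-type replicates 1, 2 and 3. In the last of these 1 gene was lower. After quantile normalization 2 were higher and 1 lower. With 1 array left out, calls over all genes also fell, from 630 to between 320 and 533. The log2 change, E2A deficient minus wild type, was above 0 in 44 of 49 genes as deposited but in 22 of 49 after quantile normalization of the arrays, and it was above 0 in 56.5% of all genes. The median change of the 49 was 0.15 (interquartile range 0.08 to 0.21), against 0.01 for all genes, and it was -0.02 after quantile normalization. Quantile normalization would also take out a shared change of the brightest genes, to which most of the 49 belong. The 8 genes whose pyrimidine starts are printed above had changes from -0.03 (Rps6) to 0.20 (Rpl35), inside the range of the others. In bulk RNA of a sorted population, a different number of cells of a kind and a different amount of RNA per cell cannot be told apart.

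The intervals bound how large a change in intensity these arrays leave room for on the deposited scaling, and they do not cover a different scaling. The 95% interval of the log2 change lay inside -0.5 to 0.5 for 40 of the 49 genes and inside -1 to 1 for all 49. Standard errors ran from 0.0540 to 0.249 with a median of 0.0925. The smallest was that of Rps16, whose probe set read 57.7 to 64.3, under the array medians. For such dim probe sets a narrow interval need not bound the change in RNA. The interval lay above 0 for 14 genes, below 0 for 0 and spanned 0 for 35.

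**Figure D1:**
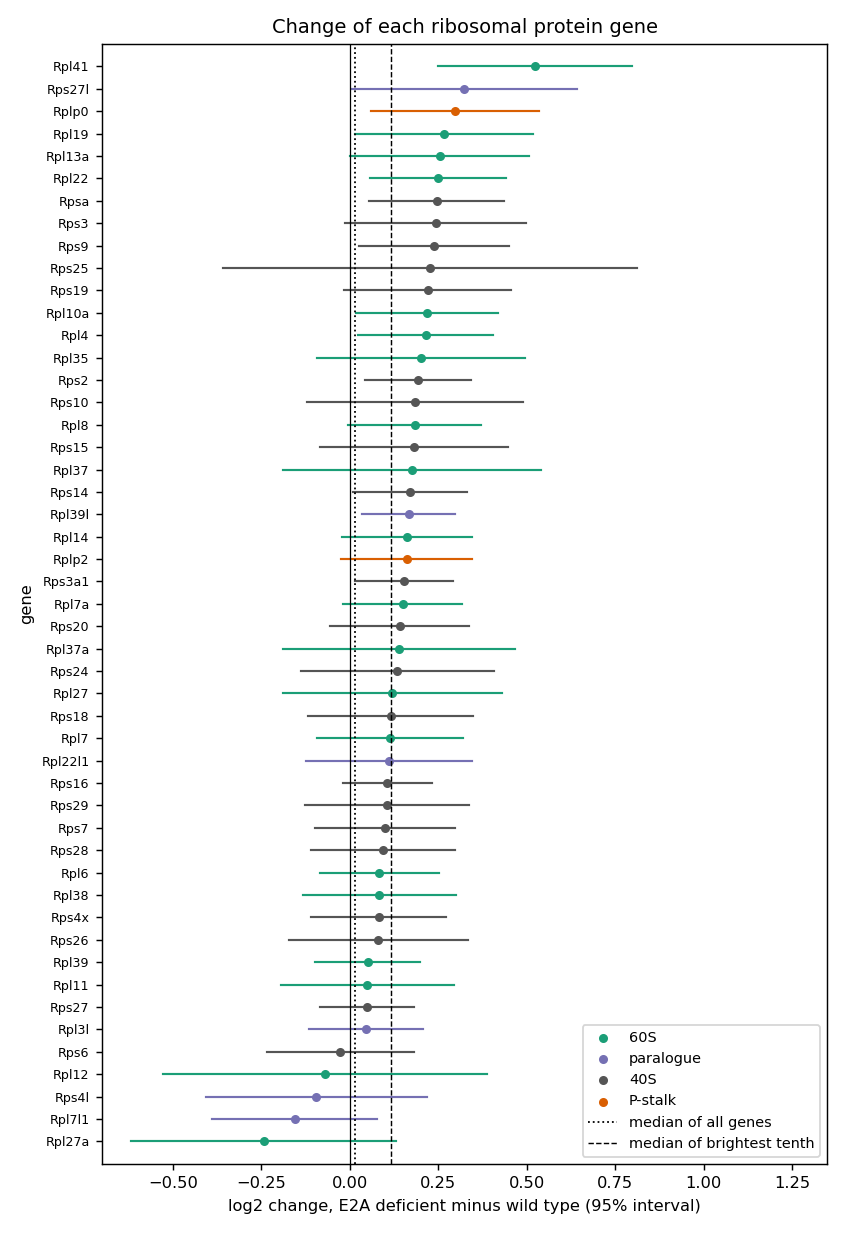
Log2 change (E2A deficient minus wild type, x axis) of each of the 49 ribosomal protein genes (y axis) with its 95% interval from the limma fit, coloured by subunit or class, with lines at the median of all genes and at the median of the 1820 brightest genes. Most points lie right of 0 as deposited, although after quantile normalization their median is -0.02, and 35 of 49 intervals span 0.

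As deposited, the median level of the 49 genes was lowest on wild-type replicate 3, and the other wild-type arrays lay closer to the E2A-deficient ones. The median intensity over the 49 was 7385, 6877 and 6851 on E2A-deficient arrays, against 6656, 6107 and 5289 on wild-type arrays. On the log2 scale these medians averaged 12.78 ± 0.0611 in E2A-deficient cells and 12.55 ± 0.168 in wild-type cells (SD, n = 3 each), and the wild-type arrays alone ranged over 0.33. Measured instead as the median deviation of each gene from its own mean over the arrays, the groups overlapped, at 0.107, 0.0628 and 0.0624 on E2A-deficient arrays, against 0.0806, -0.0807 and -0.184 on wild-type arrays. Wild-type replicate 3 held the lowest of the 6 values for 34 of the 49 genes, 69.4%, against 23.0% of all genes and 51.9% of the other 1778 of the 1820 brightest genes. The arrays also differed in sex-linked RNA. Xist was 1901, 1247 and 2154 on E2A-deficient arrays, against 3055, 4456 and 58.7 on wild-type arrays, and the Y-linked Eif2s3y was 230, 339 and 208 on E2A-deficient arrays, against 204, 58.0 and 343 on wild-type arrays. Wild-type replicate 3 thus stood apart in Xist and wild-type replicate 2 in Eif2s3y, and their part in the result was not tested. In 43 of 49 genes the log2 range was wider among wild-type than among E2A-deficient arrays, with a median range of 0.10 in E2A-deficient and 0.31 in wild-type cells. Without wild-type replicate 3 the median change was 0.08 and 40 of 49 genes stayed above 0, and without wild-type replicate 1 it was 0.21, with 0 genes passing in both cases.

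Most of the 49 are bright genes, so they were set beside bright genes as a class. Of the 49 genes, 42 were among the 1820 brightest by mean log2 intensity and 32 were among the 100 brightest. Those 1820 genes had a median log2 change of 0.12, and 71.5% of them were above 0. Of them 7.42% passed the test, 28.1% were higher at an unadjusted p under 0.05 and 27.7% had all E2A-deficient arrays above all wild-type arrays. The 42 had a median of 0.16, with 39 above 0, 13 higher at an unadjusted p under 0.05 and 11 with groups that did not overlap. With each array centred on the other bright genes, a setting chosen after seeing the data, the median of the 49 was 0.03 and 29 of 49 were above 0, while the median of all genes moved to -0.10.

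**Figure D2:**
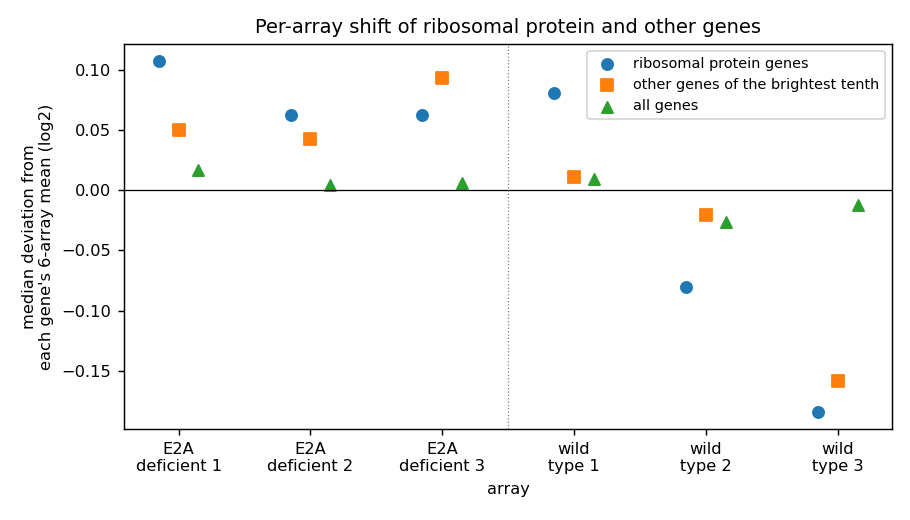
Median deviation from each gene's mean over the 6 arrays (y axis, log2) for the 49 ribosomal protein genes, the other 1778 of the 1820 brightest genes and all genes, on each array (x axis). Wild-type replicate 3 lies lowest for the first 2 sets, at -0.18 and -0.16, while all genes stay within 0.03 of 0.

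Among large-subunit genes Rpl41, which encodes the smallest ribosomal protein, had the largest change and came closest to passing. It read 9838, 7783 and 10066 in E2A-deficient cells, against 6656, 6827 and 5719 in wild-type cells. All 3 E2A-deficient arrays lay above all wild-type arrays, as they did in 13 of the 49 genes and in 13.2% of all genes, and the opposite occurred in 0 of 49 and 6.74% of all genes. The change was 0.52 (SE 0.117, 95% interval 0.25 to 0.80, limma adjusted p = 0.0641), and 0.33 after quantile normalization. Over the alternatives the adjusted p of Rpl41 ran from 0.0168 to 0.919, and it passed without E2A-deficient replicate 2 (0.0295), with genes dimmer than the median left out (0.0265), with trended and robust variance moderation (0.0168) and with arrays centred on the other bright genes (0.0393).

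The other probe sets of Rpl41 gave smaller changes. The one of nearly the same intensity read 6959, 6933 and 7625 in E2A-deficient cells, against 6932, 6831 and 5552 in wild-type cells, a change of 0.16 in which the groups overlapped. The remaining pair gave 0.20 and -0.08, and the probe set at -0.08 is the only one of the 4 whose name carries no mark for shared or cross-hybridising probes. The promoter window of Rpl41 is shown for its E box because this gene had the largest change of the 49. The capitals mark CAGGTG, the reverse complement of CACCTG, whose first base lies 138 bases before the start.
Rpl41 (chr10:128549279-128549328, minus strand): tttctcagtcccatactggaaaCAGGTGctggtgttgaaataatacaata
The CACCTG form was found in 16.3% of the group's 43 genes with a promoter and 22.9% of all such genes, as given above, and no binding was measured.

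Rpl22, an RNA-binding protein of the large subunit on which alpha-beta T-cell development depends, read 10474, 11010 and 11264 in E2A-deficient cells, against 9963, 9451 and 8230 in wild-type cells. The groups did not overlap, and the change of 0.25 (SE 0.0822, 95% interval 0.06 to 0.44) did not pass (limma adjusted p = 0.186). After quantile normalization it was 0.07. Its other probe sets gave 0.24 and 0.13. The paralogue Rpl22l1, which can take the place of Rpl22 in the ribosome, gave 2692, 2654 and 2770 in E2A-deficient cells, against 2462, 2900 and 2199 in wild-type cells. Here the groups overlapped, and the change of 0.11 (95% interval -0.12 to 0.35) did not pass (limma adjusted p = 0.733). The pair gave no call in either direction under any alternative run.

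**Figure D3:**
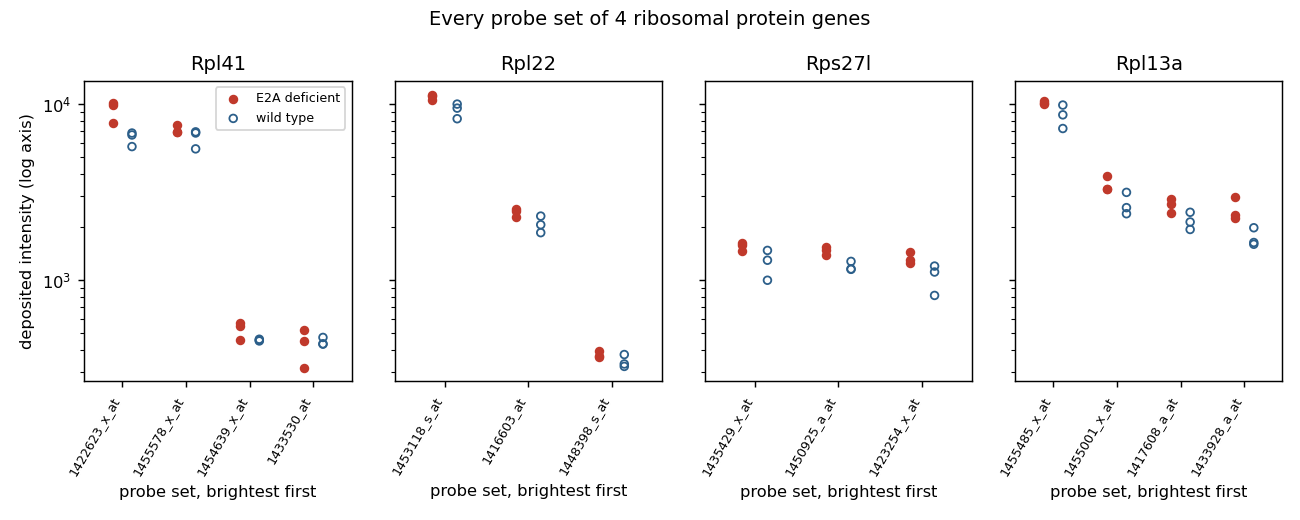
Deposited intensity (y axis, log scale) on the 3 E2A-deficient and 3 wild-type arrays for every probe set of Rpl41, Rpl22, Rps27l and Rpl13a (x axis, brightest first), which are 4 of the 6 largest changes, shown because each has 3 or 4 probe sets. The brightest probe set of Rpl41 has a log2 change of 0.52 with groups apart, and its next 0.16 with groups that overlap.

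Other large-subunit genes with values at the upper end were Rpl19 (0.27), Rpl13a (0.25), Rpl10a (0.22) and Rpl4 (0.21). Rpl13a, which also acts outside the ribosome in silencing inflammatory messenger RNAs, read 10110, 10353 and 9995 in E2A-deficient cells, against 9838, 8658 and 7242 in wild-type cells. Its groups did not overlap, its other probe sets gave 0.37, 0.30 and 0.53, and none passed in the fit per probe set. Rpl4, whose extension lines the peptide exit tunnel, read 6129, 6334 and 6851 in E2A-deficient cells, against 5707, 5935 and 5030 in wild-type cells. Rpl19 read 8886, 8681 and 9362 in E2A-deficient cells, against 8653, 7475 and 6427 in wild-type cells. The groups were apart in Rpl4 and Rpl19 and overlapped in Rpl10a, and none of the 4 passed. After quantile normalization Rpl19 was at 0.05 and Rpl13a at 0.08, and without wild-type replicate 3 they were at 0.16 and 0.14.

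Rpl11, which binds and inhibits Mdm2 when ribosome assembly is disturbed, was near 0 at 0.05 (95% interval -0.19 to 0.29). It read 4967, 5184 and 4702 in E2A-deficient cells, against 5562, 4657 and 4215 in wild-type cells, with wild-type replicates at both ends. Rpl38, a large-subunit protein known from a mouse mutant for its effect on translation of Hox messenger RNAs, stood at 0.08, and Rpl6 at 0.08. The lowest value of the group was that of Rpl27a, at -0.24 (95% interval -0.62 to 0.13), with 511, 438 and 568 in E2A-deficient cells, against 755, 548 and 509 in wild-type cells. Rpl12, part of the base of the stalk, was at -0.07 (95% interval -0.53 to 0.39). Both were read by probe sets far dimmer than most of the group, and brighter probe sets that list them together with other genes were not used.

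The stalk proteins recruit the elongation factors to the ribosome. Rplp0, the anchor of the stalk, read 9866, 9610 and 9497 in E2A-deficient cells, against 8678, 8361 and 6677 in wild-type cells. Its groups did not overlap, and the change of 0.30 (SE 0.101, 95% interval 0.06 to 0.54) did not pass (limma adjusted p = 0.196). It was 0.06 after quantile normalization and 0.18 without wild-type replicate 3. Rplp2, which sits on that anchor, read 9033, 9213 and 8804 in E2A-deficient cells, against 8975, 7864 and 7442 in wild-type cells. Its change was 0.16, the groups overlapped, and after quantile normalization it was -0.10.

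In the small subunit the 21 changes ran from -0.03 to 0.25 with a median of 0.14. Rpsa, also known as the laminin receptor precursor, gave the largest, at 0.25 (SE 0.0813, 95% interval 0.06 to 0.44, limma adjusted p = 0.186). It read 14163, 14203 and 13881 in E2A-deficient cells, against 13285, 11623 and 10850 in wild-type cells, and the groups did not overlap. After quantile normalization its change was 0.08. Rps3, which lies at the entry of the messenger RNA channel, was at 0.24, Rps9 at 0.24 and Rps25 at 0.23, and in each the groups overlapped. After quantile normalization Rps3 was at 0.04, Rps9 at 0.09 and Rps25 at 0.14. For Rps25 the change was -0.07 without wild-type replicate 3, whose 497 was the lowest of its 6 intensities.

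Rps2 (0.19), Rps14 (0.17) and Rps3a1 (0.15) were the other small-subunit genes among the 1820 brightest whose groups did not overlap. Rps2 read 12282, 11865 and 11858 in E2A-deficient cells, against 11251, 10177 and 10103 in wild-type cells. Rps19 (0.22), Rps10 (0.18), Rps24 (0.13), Rps7 (0.10) and Rps26 (0.08), in which mutations cause Diamond-Blackfan anaemia in humans, all had overlapping groups. Rps6, the substrate of S6 kinase, was at -0.03, with 633, 597 and 611 in E2A-deficient cells, against 583, 714 and 588 in wild-type cells. The X-linked Rps4x was at 0.08, with 10567, 10398 and 10258 in E2A-deficient cells, against 10980, 9665 and 8975 in wild-type cells.

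**Figure D4:**
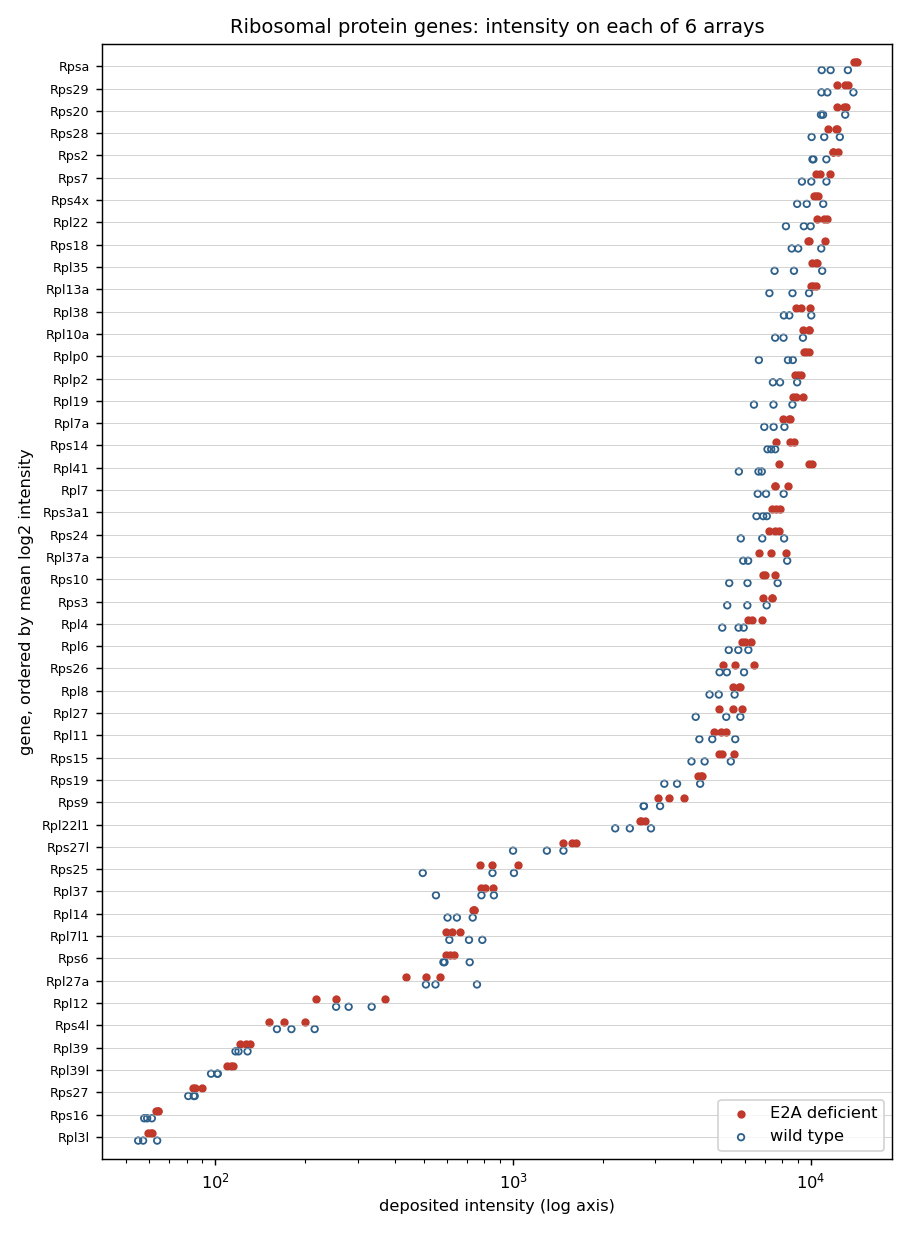
Deposited intensity (x axis, log scale) of each of the 49 ribosomal protein genes (y axis, ordered by mean log2 intensity) on the 3 E2A-deficient arrays (filled) and the 3 wild-type arrays (open). The groups are apart in 13 genes and overlap in 36, and intensities of different genes come from different probes and are not comparable as RNA amounts.

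The 6 paralogue genes had changes on both sides of 0 and none passed. Rps27l, a paralogue of Rps27 that p53 induces, read 1576, 1467 and 1619 in E2A-deficient cells, against 1474, 1297 and 998 in wild-type cells. The change was 0.32 (SE 0.136, 95% interval 0.01 to 0.64, limma adjusted p = 0.307), and the groups overlapped. Its other probe sets gave 0.30 and 0.37 with the groups apart in both, and neither passed in the fit per probe set. For the brightest probe set the change was 0.20 after quantile normalization and 0.17 without wild-type replicate 3. Rpl39l, best known from the testis, read 113, 109 and 115 in E2A-deficient cells, against 96.7, 102 and 101 in wild-type cells, a difference of 0.17 at a level close to the array medians. Rpl7l1 was at -0.16 and Rps4l, which RefSeq lists as a transcribed pseudogene, at -0.09. Rpl3l, the form of heart and skeletal muscle, lay below the array medians on every array, at 59.2, 60.8 and 61.4 in E2A-deficient cells, against 57.2, 63.8 and 55.1 in wild-type cells.

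Their standard counterparts Rps27 and Rpl39 were read here by probe sets of 81.1 to 89.8 and 117 to 130, with changes of 0.05 each. Rps16 was read by a probe set at 57.7 to 64.3, under the array medians, with a change of 0.11. The 3 genes are also listed, together with other genes, by brighter probe sets that were not used.

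Probe sets of ribosomal protein genes are seldom specific, because mouse ribosomal proteins have many processed pseudogenes. Of the 49 probe sets, 15 carried a name that marks cross-hybridising probes (x), 2 a name that marks probes shared by transcripts of different genes (s), 17 a name that marks several transcripts of 1 gene (a) and 15 no such mark. The group had 105 probe sets in all, of which 24 genes had more than 1, and 0 of the 105 passed in the fit per probe set, where 1.79% of all probe sets passed. Of the 56 probe sets beyond the brightest of each gene, 47 were above 0, as were 51.8% of all probe sets. Among the 34 of these with a mean intensity above 500, a limit chosen after seeing the values, 34 were above 0, and all 18 genes with at least 2 such probe sets had them on 1 side of 0. A further 110 probe sets named a ribosomal protein together with other genes, and of these 1 passed and 96 were above 0, with a median of 0.16. With only probe sets that carry none of the 3 marks, 26 genes remained, with a median change of 0.05 and 16 above 0. For some of these genes the unmarked probe set was far dimmer than the one used otherwise. Its mean intensity was 75.6 against 12159 in Rps20, and 86.0 against 9680 in Rpl35. The setting thus changes brightness together with specificity, and which of them lowers the median was not tested.

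Other genes of the ribosome and its making were read from lists beside the shares over all genes, 3.46% passing and 11.1% higher and 4.56% lower at an unadjusted p under 0.05. In a list of 68 genes of ribosome biogenesis and ribosomal RNA synthesis, 0 passed, 10 were higher and 3 lower at an unadjusted p under 0.05, and the median change was 0.02. The smallest p-values belonged to Bop1 (0.39, limma adjusted p = 0.0931), which matures the large-subunit RNA, and Utp18 (0.39, 0.128), part of the small-subunit processome. Of 42 measured initiation, elongation and related factors 0 passed, 9 were higher and 1 lower at an unadjusted p under 0.05, and the median was 0.15. These 42 are bright genes, with a median log2 intensity of 10.46. The 1820 brightest genes had a median change of 0.12, with 28.1% higher at an unadjusted p under 0.05. Eif1ax, which scans for the start codon with the small subunit, was at 0.32 (limma adjusted p = 0.0889), and Eif2b4, of the exchange factor for eIF2, at 0.30 (0.179). Fau, which encodes the small-subunit protein S30 under a symbol of its own, was at 0.32 (limma adjusted p = 0.210).

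Mitochondrial ribosomal protein genes, whose products form the separate ribosome of the organelle, included 5 that rose among 76 measured, with 0 that fell, where 2.40% of all genes rose and 1.06% fell. They were Mrpl27 (0.52), Mrpl49 (0.46), Mrpl22 (0.41), Mrpl32 (0.34) and Mrpl43 (0.34), with limma adjusted p from 0.0156 to 0.0387. Mrpl27 read 726, 759 and 825 in E2A-deficient cells, against 521, 583 and 507 in wild-type cells. In each of the 5 the groups did not overlap, which adds no support, because the genes were picked by a test on these same arrays. The median of the 76 was 0.17, with 66 above 0. At an unadjusted p under 0.05, 27 were higher and 1 lower, against 11.1% and 4.56% of all genes. All E2A-deficient arrays lay above all wild-type arrays in 25 of the 76 and below them in 2, against 13.2% and 6.74% of all genes. The 76 were brighter than most genes, with a median log2 intensity of 8.74, against 6.56 for all genes and 9.78 for the 1820 brightest. Of those 1820 genes 7.42% passed, 28.1% were higher at an unadjusted p under 0.05 and 27.7% had all E2A-deficient arrays above. The part of brightness in the counts of the 76 was not tested. Once the beta-actin ratio entered the fit as a covariate, calls over all genes fell from 630 to 123. That ratio was lower on wild-type replicates 1 and 3 than on every E2A-deficient array, so the fit cannot fully separate it from genotype. All 5 called genes lost their call in that fit. Mrpl32 and Mrpl43 also lost it without any single one of the 6 arrays, Mrpl49 without any single array but E2A-deficient replicate 1, Mrpl22 without E2A-deficient replicate 1 or 3 or wild-type replicate 1 or 2, and Mrpl27 without E2A-deficient replicate 2 or 3 or wild-type replicate 3. Of the 5, the ones that passed were Mrpl27 and Mrpl32 with quantile normalization, Mrpl27 and Mrpl22 with median centring, Mrpl27 and Mrpl49 with trended robust variances, and Mrpl27 alone with arrays centred on other bright genes. Over all alternatives the limma adjusted p of Mrpl27 ran from 0.0110 to 0.202. Whether mitochondrial and cytosolic genes differ in their change was not tested.

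Among 20 regulators of ribosome output Deptor, an inhibitor of mTOR, fell and was the only one that passed, where 1.06% of all genes fell. It read 431, 381 and 352 in E2A-deficient cells, against 655, 575 and 525 in wild-type cells, and its change was -0.59 on the log2 scale (SE 0.106, limma adjusted p = 0.0285). The call was lost when either of E2A-deficient replicates 2 and 3 or of wild-type replicates 1 and 2 was left out, with the mean of its probe sets and once the beta-actin ratio entered the fit as a covariate, and its adjusted p over all alternatives ran from 6.80e-04 to 0.229. Larp1, the repressor that binds the pyrimidine tract, was at -0.32 (limma adjusted p = 0.106), with 839, 957 and 982 in E2A-deficient cells, against 1175, 1065 and 1231 in wild-type cells. Myc, which drives ribosome production, was at -0.32 with overlapping groups, and Mtor was at 0.02. Of 13 measured genes of the p53 pathway 0 passed. Ccng1 had the smallest p, at 0.46 (limma adjusted p = 0.0889), followed by Zmat3 (0.40), while Cdkn1a was at -0.05 and Mdm2 at -0.15.

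The median of the 49 genes kept its sign when single arrays were left out and turned with quantile normalization. It lay between 0.08 and 0.21 when single arrays were left out, was 0.12 with median centring and 0.14 once the beta-actin ratio entered the fit as a covariate, and turned to -0.02 with quantile normalization. Quantile normalization sets the whole intensity distribution of the arrays equal, including the upper end, where the deposited arrays differed and where 42 of the 49 genes lie. It would therefore also take out a shared change of these genes, so its -0.02 cannot tell such a change from a difference in scaling. Over all genes it gave 339 higher and 268 lower calls, against 437 and 193 as deposited, and centring on bright genes gave 346 and 546.

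**Figure D5:**
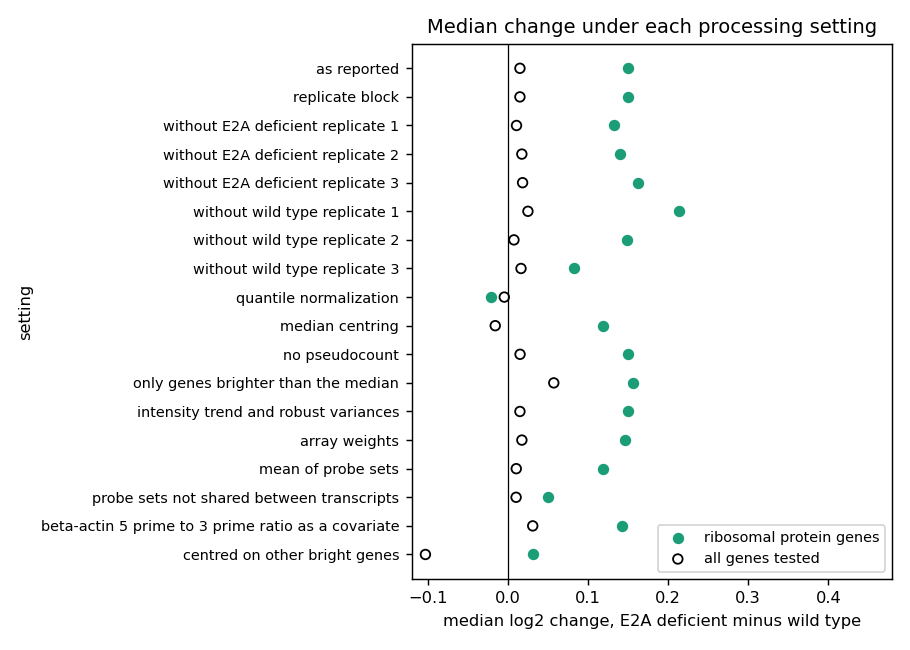
Median log2 change (x axis, E2A deficient minus wild type) of the 49 ribosomal protein genes (filled; 46 once dim genes are left out and 26 with unmarked probe sets) and of all genes tested (open) under each processing setting (y axis). The ribosomal median lies above 0 in every setting shown except quantile normalization, where it is -0.02, and is 0.03 when arrays are centred on other bright genes.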

How the data were processed

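The authors deposited linear intensities, 1 per probe set and array. The submitters' processing notes name RMA, without a version and without the step that made its log2 output linear. Per the labels' protocols, RNA was amplified over repeated rounds of in vitro transcription. Leaving out 64 control probe sets left 45037, of which 34945 named 1 gene, 932 several and 9160 none. All 49 Entrez identifiers were found in a RefSeq table of GRCm38.p6. Log2(intensity + 1) was fitted per gene with limma 3.58.1 in R 4.3.3, without a filter on dim genes. Its moderated test was two-sided, and p-values were adjusted over 18193 genes by Benjamini-Hochberg with a threshold of 0.05. The number of arrays limits the precision. The fit was tested on simulated data. Plots came from matplotlib 3.10.9 under Python 3.11.15. The genes, lists, tests and alternatives were chosen with earlier results of these data known. The rule for naming genes took any called gene of the group, its 10 highest and 10 lowest changes, paralogues with their partners, stalk genes and Rpsa, the 3 brightest and 3 dimmest probe sets, and in each pathway list the called genes or the 2 with the smallest p. Others were named for a known role, after their values were seen. Alternatives were a replicate block, leaving out each array, quantile normalization, median centring, no pseudocount, leaving out genes dimmer than the median, trended robust variances, array weights, averaging probe sets, unshared probe sets and a beta-actin covariate. Centring on bright genes was added after seeing the data.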

Additional observations from a re-analysis of the deposited data

How the results depend on the processing

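The count of ribosomal protein genes that passed was 0 as deposited. It was 0 to 1 when single arrays were left out, and 1, each time Rpl41, with dim genes left out, with trended robust variances and with arrays centred on other bright genes. Their median log2 change was -0.0207 after quantile normalization and 0.0831 to 0.213 when single arrays were left out. Calls in the pathway lists, 6 as deposited, were 0 to 6 with single arrays left out, 3 with quantile normalization, median centring or trended robust variances, and 0 with the beta-actin covariate. Without wild-type replicate 2 there were again 6, but of the genes called as deposited only Mrpl27 was among them. Calls over all genes, 630, were 320 to 533 with single arrays left out and 123 with the beta-actin covariate. Probe sets called, 804, were 358 to 563 with single arrays left out and 471 with the replicate block. Same-numbered arrays did not deviate together (correlations across genes 0.0168, 0.0166 and -0.0417), so the numbers give no pairing, and with the replicate block 0 ribosomal protein genes and 459 genes passed. Values follow for genes that the naming rule took, with counts over the 49. Signs turned for 5 of 26 with unshared probe sets, of these Rpl41 (-0.0828), and for Rps9 (-0.0355) with averaged probe sets, and Rpl3l (-0.0596) and Rpl22l1 (-0.0794) with the beta-actin covariate. With single arrays left out, up to 4 of 49 turned at a time (without wild-type replicate 3, Rpl37 and Rpl27 among them), and changes spanned 0 in Rps25 (-0.0723 to 0.435), Rps26 (-0.0122 to 0.163), Rpl11 (-0.0409 to 0.159), Rps6 (-0.0786 to 0.0678), Rpl12 (-0.289 to 0.0959) and Rps4l (-0.199 to 0.0178). With quantile normalization 22 of 49 turned, among them Rps26 (-0.0912), Rpl11 (-0.123), Rpl22l1 (-0.0230), Rpl7 (-0.0900), Rps4x (-0.0575), Rplp2 (-0.102), Rps29 (-0.0745) and Rps20 (-0.0207). With arrays centred on other bright genes 15 of 49 turned, among them Rps26 (-0.0375), Rpl39 (-0.0673), Rpl11 (-0.0683), Rps27 (-0.0698), Rpl3l (-0.0725), Rpl22l1 (-0.00667), Rpl7 (-0.00497), Rps4x (-0.0370), Rps29 (-0.0126) and Rps16 (-0.0117). None of these passed, and the cause was not tested. Dim probe sets, such as those of Rpl3l, Rps16 and Rps27, limit what can be seen of their genes.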
